A study of Jaltomata procumbens and Jaltomata herrerae with 23 samples.

Results

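The floral nectary of Jaltomata herrerae before nectar secretion was compared with the fully expanded leaf of the same species. The members are the 5 libraries that the labels assign to these tissues, 3 of pre-secretory nectary (A, B and C) and 2 of leaf (A and B), of 23 libraries in the series. Jaltomata is a genus of the tomato family, and the series also holds J. herrerae nectaries during and after secretion and the matching tissues of Jaltomata procumbens. Pre-secretory nectaries were cut out by hand 24 to 48 h before the flower opened, from plants kept at daytime highs of 25 °C and nighttime lows of 15 °C. The labels give no genotype, treatment or plant age and no number of plants per library. Whether replicates came from different plants is not stated, and the p-values therefore describe the spread between these samples, which may be technical. Values are TPM, a transcript abundance corrected for transcript length and library total, which the authors rounded to whole numbers and gave for 13170 Arabidopsis loci. They are printed here after division by a scaling factor per library, since 3 loci took very different shares of the libraries. Gene names and roles are those of the Arabidopsis loci.

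A floral nectary is a small gland that releases sugar solution to pollinators. In Arabidopsis and other eudicots its identity depends on the transcription factor CRABS CLAW (CRC), and nectar leaves the cells as sucrose through the exporter SWEET9, with cell wall invertase CWINV4 splitting sucrose outside and sucrose phosphate synthases supplying it inside. In many nectaries starch is stored before the flower opens and broken down for secretion. The leaf is the contrasting tissue: it fixes carbon in chloroplasts, and its transcripts are dominated by photosynthesis genes.

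Within J. herrerae each of the 11 libraries correlated best with its own labelled group. The pre-secretory libraries reached r = 0.946 to 0.953 with each other and 0.7 to 0.746 with leaf (Pearson correlation of log2 values, given as a description). Listed totals ran from 542947 to 681047 TPM and 11331 to 12449 loci stood at 1 TPM or more. TPM keeps no read depth, and the labels give a mean of at least 20 M reads per library. AT5G50290, AT5G36210 and AT2G01021 together held 47.2, 10.9 and 33.8% of the listed TPM in pre-secretory A, B and C, against 6.79 and 4.76% in leaf A and B. The scaling factors, set by the median ratio over 10463 loci above 0 in every J. herrerae library, were 0.73, 1.53 and 0.94 in the nectary libraries and 1 and 0.89 in leaf. A listed value of 1 TPM thus became 0.653 to 1.37 in the nectary, so values near these rest on the smallest step the table holds.

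The labelled tissues were checked against marker genes. All 5 leaf mesophyll markers measured (RBCS1A, RCA, LHCB1.1, LHCB2.1 and LHCB3) were lower in nectary, and all 3 nectary markers (CRC, SWEET9 and CWINV4) were higher. The summed mesophyll markers stood at 1390, 104 and 4720 rescaled TPM in pre-secretory A, B and C against 76400 and 121000 in leaf A and B, which is 1.41, 0.105 and 4.78% of the mean leaf level. The summed nectary markers stood at 4150, 5170 and 7240 against 286 and 646. Of 8 pollen and anther markers 1 was measured (AMS, at 0, 1.96 and 2.13 against 0 and 0 in leaf). The petal and stamen identity genes AP3 and PI were both higher in nectary, with a summed level of 77.9, 71.9 and 60.7 against 6.97 and 4.5. Of 7 carpel and ovule markers measured, 1 was higher (STK) and 5 were lower, with sums of 79.3 to 104 against 57.4 and 59.8, and BEL1 was listed at 0 in each pre-secretory library. Of 5 vascular markers, 2 were lower, the phloem loader SUC2 and the xylem protease XCP2, 3 did not pass the test and none was higher. The sums were 15.7 to 19.1 against 112 and 146 in leaf A and B, of which SUC2 alone held 63.7 and 122. Of 3 guard cell markers the stomatal factor FAMA was lower and the kinase HT1 higher (sums 57.4 to 103 against 34.9 and 44.8). Neither of 2 trichome markers passed the test (sums 6.39 to 8.2 against 7.88 and 11), and 4 of 4 epidermal markers were lower (sums 24.8 to 54.7 against 102 and 394). Over all loci tested, 16.2% were higher and 27.3% lower by the same test. In tissue pieces of this kind, fewer cells of a type and less RNA per cell cannot be told apart.

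Nectary and leaf differed at a large share of the loci. Of 12677 loci tested, 5524 (43.6%) were called at an adjusted p under 0.05, 2059 of them higher in nectary (16.2% of the loci tested) and 3465 lower (27.3%). The test was limma on log2(rescaled TPM + 1) with Benjamini-Hochberg adjustment over the loci tested, fitted to the 11 J. herrerae libraries in 4 groups, which share 1 estimate of the spread. Large differences lay mostly on the leaf side: 1294 called loci were at least 4-fold lower in nectary and 251 at least 4-fold higher. Between the libraries themselves, 3203 loci (25.3%) had each nectary value above each leaf value and 4496 (35.5%) the reverse. The balance of directions depends on the scaling. With upper quartile scaling 3346 loci were higher and 2871 lower (53.8% higher, against 37.3% in the main test), and the median log2 change of the loci tested moved from -0.06 to 0.16. With the 3 dominant loci removed and the rest brought to a common total, 5440 were higher and 2194 lower (71.3% higher) and the median was 0.48. On the deposited scale 953 were higher and 2479 lower (27.8% higher), and in a fit to all 23 libraries 575 were higher and 1258 lower. An exact permutation of 3 against 2 labels cannot go below p = 0.1 (two-sided), so no single value can pass 0.05 that way.

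**Figure D1:**
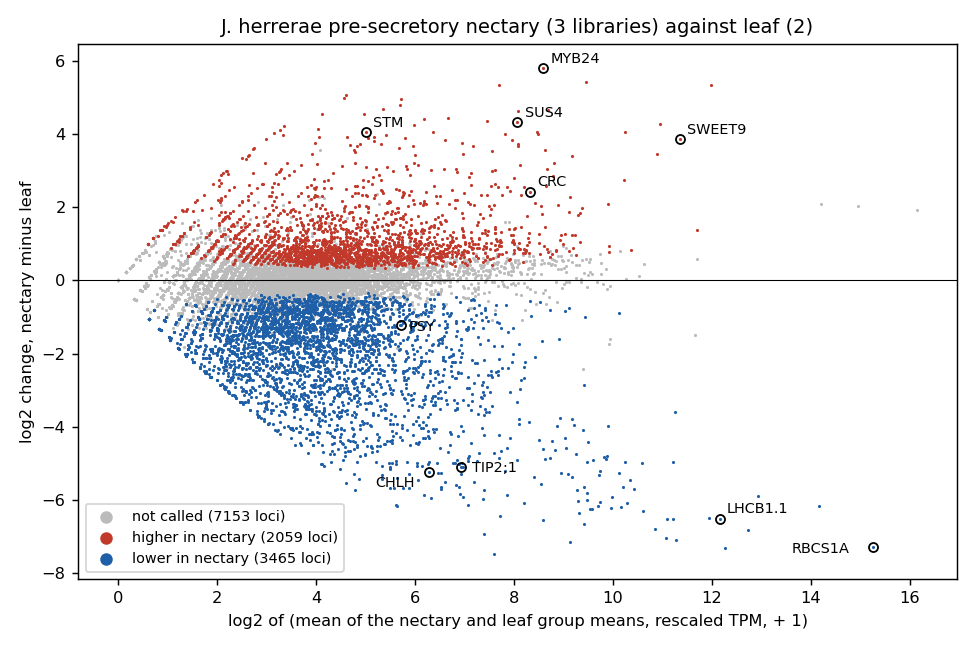
Each point is 1 of 12677 loci, with the log2 of its mean level in rescaled TPM + 1 on the horizontal axis and the log2 change of nectary minus leaf on the vertical axis. Red and blue mark the 2059 higher and 3465 lower loci; the photosynthesis genes RBCS1A and LHCB1.1 form the far lower right, and MYB24, SUS4 and SWEET9 lie near the top.

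Sugar export genes were high in the nectary before any nectar was released. SWEET9 stood at 3530, 4400 and 6690 rescaled TPM in pre-secretory A, B and C, against 217 and 477 in leaf A and B. That is a log2 change of 3.86 (SE 0.46, adjusted p = 8.03e-05), or 14.6-fold on the TPM + 1 scale, and the groups did not overlap. SWEET11, a sucrose exporter known from phloem loading in Arabidopsis leaves, stood at 1010, 2180 and 3050 against 178 and 442 (2.74, adjusted p = 0.00897). SWEET7 (349, 543 and 609 against 41.8 and 32.6; 3.68, adjusted p = 3.1e-05) and SWEET4 (41, 36.6 and 62.9 against 1.99 and 3.38; 3.69, SE 0.29, adjusted p = 8.09e-06), both of a clade that carries hexoses, were also higher in each nectary library. Other members of the family were lower. SWEET17, a vacuolar fructose carrier, stood at 1.37, 0 and 1.07 against 35.9 and 23.6 (-4.15, SE 0.34, adjusted p = 9.42e-06). SWEET10 was lower too, at 2.73, 5.88 and 9.59 in nectary (-3.1, SE 0.54, adjusted p = 0.000993), below both leaf libraries.

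The enzymes that make and split sucrose went with the exporters. SUS4, a sucrose synthase, had 313, 552 and 665 in nectary and 19.9 and 27 in leaf, a log2 change of 4.33 (SE 0.35, adjusted p = 8.37e-06). The sucrose phosphate synthase gene SPS1F had 220, 336 and 399 against 38.8 and 65.3 (2.59, SE 0.32, adjusted p = 9.38e-05), and the sucrose phosphate phosphatase SPP2 had 53.3, 86.2 and 99.1 against 14.9 and 23.6 (1.98, adjusted p = 0.000309). Among the cell wall invertases, which split sucrose outside the cell, CWINV2 was the most abundant of those called, with 598, 631 and 772 against 34.9 and 43.9 (4.05, SE 0.4, adjusted p = 2.4e-05). CWINV3 stood at 10.9, 8.49 and 14.9 and was listed at 0 in both leaf libraries. CWINV4 had 94.4, 136 and 104 in nectary, but the leaf libraries were 2.99 and 25.9, and its call was among the weaker ones (3.43, SE 1.14, adjusted p = 0.0317). That call was lost without any of the pre-secretory libraries in turn, without leaf A and in the fits to 20 and 23 libraries, where its adjusted p reached 0.4.

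Over the whole list for sugar export and sucrose supply, 25 of 34 genes were tested. Of these 13 were higher, 4 lower and 8 not called, against 16.2% higher and 27.3% lower over the loci tested, and the list median was 1.49 against -0.06. The uncalled SUS1 and SWEET14 varied widely within the tissues: SUS1 had 202, 2.61 and 55.4 in nectary and 11 and 56.3 in leaf. Of 9 genes for sugar import and vacuolar invertase 2 were higher and 3 lower, shares near those over the loci tested. SUC2, the sucrose carrier that loads phloem companion cells, had 4.1, 5.23 and 5.33 against 63.7 and 122 (-3.93, adjusted p = 5.6e-06). The hexose carriers STP1 (-3.37, adjusted p = 0.000315) and STP13 (-2.4, adjusted p = 0.00491) were lower as well, while the vacuolar sucrose carrier SUC4 (1.27, adjusted p = 0.00225) and the vacuolar invertase BFRUCT3 (0.64, adjusted p = 0.0247) were higher. BFRUCT3 lost its call on the deposited scale and without pre-secretory A, pre-secretory B or leaf A (adjusted p up to 0.502), and STP13 without leaf B.

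**Figure D2:**
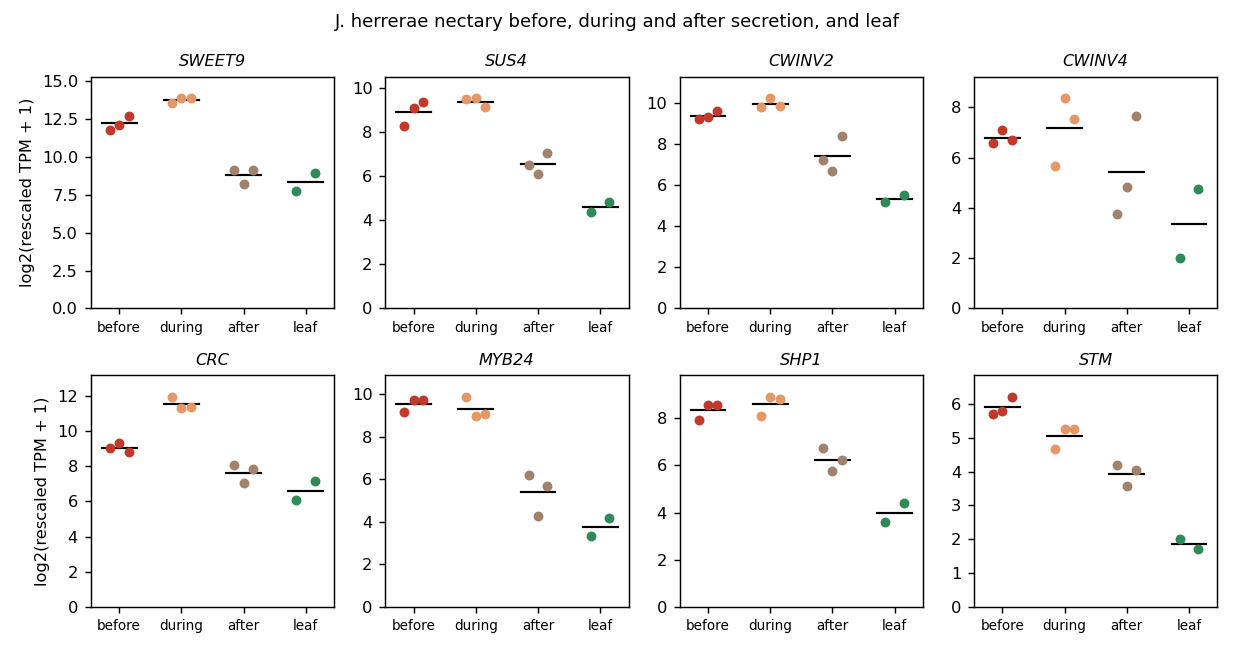
Each panel shows 1 gene as log2(rescaled TPM + 1) in every J. herrerae library, grouped as nectary before, during and after secretion (3 libraries each) and leaf (2 libraries); the bar is the group mean. For each of the 8 genes the 3 pre-secretory points lie above both leaf points.

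Most genes of cytosolic glycolysis were higher in the nectary. Of 15 genes of cytosolic glycolysis and hexose phosphorylation, 11 were higher and 2 lower, with a list median of 1.25. FBA8, a cytosolic aldolase, had 263, 449 and 290 against 46.8 and 33.8 (3, SE 0.31, adjusted p = 3.45e-05), and its relative FBA6 had 469, 539 and 402 against 101 and 84.4 (2.33, adjusted p = 1.34e-05). The hexokinases HXK1 (1.69) and HXK2 (1.62), which phosphorylate glucose, were higher too. PDC1, a pyruvate decarboxylase of fermentation, had 17.8, 22.2 and 28.8 against 3.98 and 2.25 (2.55, adjusted p = 0.000367), and the alcohol dehydrogenase ADH1 followed (1.97, adjusted p = 0.000829). The exceptions were CFBP, the cytosolic fructose bisphosphatase that leads triose phosphate towards sucrose in leaves (-1.86, adjusted p = 0.000115), and F2KP (-0.68, adjusted p = 0.0105), which sets the level of its inhibitor. F2KP lost its call under each of the 3 other scalings.

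Starch synthesis genes were called in both directions. Of 17 genes 4 were higher and 7 lower (median -0.11), against 16.2% higher and 27.3% lower over the loci tested. With the dominant loci removed 6 were higher and 6 lower. The starch synthases SS4 (4.1, 2.61 and 5.33 against 46.8 and 45; -3.26, adjusted p = 4.17e-06) and SS1 (-2.86, adjusted p = 5.73e-06), the plastid phosphoglucomutase PGM1 (-2.46, adjusted p = 5.28e-06) and the small subunit of ADP-glucose pyrophosphorylase APS1 (-2.08, adjusted p = 5.6e-05) were lower. The large subunit APL2 had 67, 127 and 119 against 43.8 and 32.6 (1.39, adjusted p = 0.00151). GPT1, which brings glucose phosphate into plastids that do not photosynthesise, was also higher (1.54, adjusted p = 0.00176). Starch breakdown had 12 lower and 2 higher of 19 (median -1). The plastid amylase BAM3, central to night-time starch use in Arabidopsis leaves, stood at 0, 0 and 1.07 against 9.96 and 16.9 (-3.46, adjusted p = 0.000158). PHS2 (-2.49, adjusted p = 7.71e-06) and DPE1 (-1.88, adjusted p = 3.21e-05) were lower, and AMY1 was listed at 0 in the 3 nectary libraries. ISA3 (0.72, adjusted p = 0.0299) and SEX4 (0.6, adjusted p = 0.0383) were the 2 higher ones, and both lost their calls on the deposited scale and without pre-secretory B, pre-secretory C or leaf A.

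Of the 36 lists, the photosystem list had the largest median difference between the tissues. All 35 tested genes of the photosystems and electron transport were lower in nectary, with log2 changes of -7.05 to -3.77 and a median of -5.65. Of 19 Calvin cycle genes 18 were lower (median -4.98), and the remaining one, PDTPI, was at -0.02. Together the photosystem and Calvin cycle genes held 0.605, 0.393 and 1.87% of the listed TPM in pre-secretory A, B and C, against 32.3 and 37.4% in leaf A and B. RBCS1A, a small subunit of Rubisco, had 1080, 23.5 and 3960 against 55900 and 97200 (-7.29, SE 1.69, adjusted p = 0.00524). LHCB1.1, a light-harvesting chlorophyll protein, had 120, 28.7 and 267 against 8820 and 9170 (-6.51, SE 0.83, adjusted p = 0.000127). LHCB2.2 (-7.05), LHCB2.1 (-6.8) and LHCB3 (-6.49) and the Rubisco subunits RBCS1B (-7.31), RBCS2B (-7.09) and RBCS3B (-6.83) lay in the same range. Each family has near-identical copies, so how its reads were divided among loci is uncertain. RBCS1B lost its call without either leaf library.

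These genes were not equally low in the 3 nectary libraries. In the photosystem list, pre-secretory A, B and C stood at 2.05, 0.846 and 3.78% of the mean leaf sum, and in the Calvin cycle list at 1.74, 0.568 and 5.92%. In both lists C was the highest and B the lowest. The mesophyll markers are members of these lists and so had the same order. Photorespiration genes stood at 5.94, 7.83 and 9.93% and chlorophyll synthesis genes at 7.83, 10.2 and 12.4% of the mean leaf sum, with A the lowest. The part of leaf cells in these levels was not tested. Without pre-secretory C, 35 of 35 photosystem genes and 17 of 19 Calvin cycle genes were called lower, and the medians were -6.16 and -5.71.

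Genes of photorespiration, chlorophyll synthesis, chloroplast regulation and carbonic anhydrase were mostly lower too. Of 12 photorespiration genes 11 were lower (median -3.07), among them the glycolate oxidase GOX1 (27.3, 10.5 and 49 against 597 and 920; -4.87, adjusted p = 3.88e-05), the aminotransferase AGT1 (-5.84), the hydroxymethyltransferase SHM1 (-4.91) and the reductase HPR1 (-4.24). Of 12 chlorophyll synthesis genes 11 were lower (median -3.43). CHLH, a subunit of the magnesium chelatase that opens the chlorophyll branch, had 4.1, 1.31 and 4.26 against 125 and 177 (-5.24, SE 0.39, adjusted p = 5.68e-06), and PORB (-5.55), PORC (-4.85) and CRD1 (-4.57) were close to it. Of 10 chloroplast regulators 9 were lower (median -2.41): the sigma factor SIG1 (-3.34), the kinase STN7 (-3.2), the protease VAR2 (-2.92) and GLK1 (-2.69), a transcription factor that switches on photosynthesis genes. Carbonic anhydrases BCA1 (30.1, 0 and 73.5 against 1340 and 1320; -6.66), ACA1 (-5.13) and BCA4 (-3.96) were lower, and 2 others of 5 were not called.

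Genes encoded in the plastid itself differed less than the nuclear ones. Of 17 tested, 9 were lower and none higher, with a median of -0.88. psbA, a reaction centre protein of photosystem II, had 43.8, 22.2 and 38.4 against 220 and 371 (-3.06, adjusted p = 0.000206), and rbcL, the large Rubisco subunit, had 61.5, 24.8 and 30.9 against 185 and 162 (-2.23, adjusted p = 0.00175). psbB (-2.82) and petB (-2.43) were lower, while matK, rpoB, accD and psaB stood between -0.35 and -0.05 and were not called. The libraries were made from polyadenylated RNA, and few plastid transcripts carry poly(A) tails, so these levels need not follow plastid RNA abundance. With the 3 dominant loci removed, 3 plastid genes were higher and 8 lower.

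**Figure D3:**
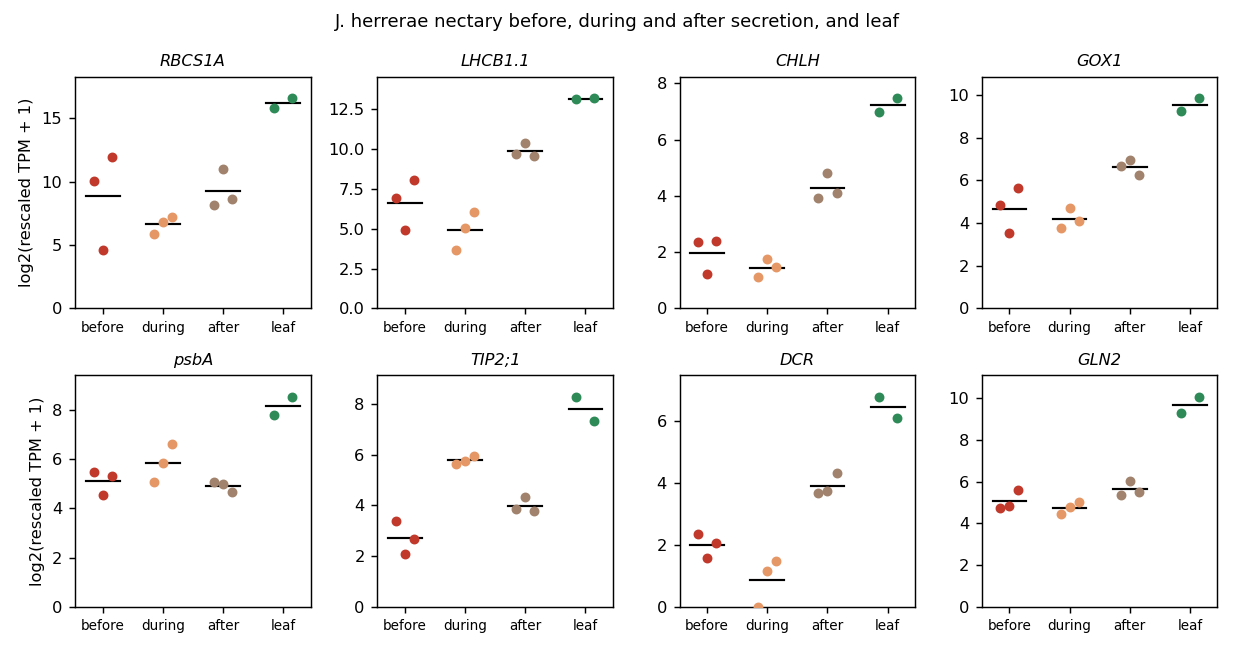
Each panel shows 1 gene as log2(rescaled TPM + 1) in every J. herrerae library, grouped as in the plot of nectary genes, with the group mean as a bar. Both leaf points lie above every nectary point in the 8 panels, and the pre-secretory points for RBCS1A and LHCB1.1 spread widely, C highest and B lowest.

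Flower-identity genes were prominent among the rises. Of 17 floral and flowering MADS box factors 11 were higher and 4 lower, with a median of 2.66. SHP1, which acts in carpel and nectary formation, had 239, 374 and 378 against 11 and 20.3 (4.35, SE 0.37, adjusted p = 1.11e-05). SEP1, a cofactor for floral organ identity, had 391, 570 and 537 against 34.9 and 38.3 (3.72, SE 0.18, adjusted p = 2.03e-06), and SEP4 was at 3.58. The stamen and petal factor PI had 17.8, 13.1 and 10.7 and was listed at 0 in both leaf libraries. The lower members were factors that act on flowering time or in vegetative shoots. SVP, a floral repressor, had 2.73, 0.653 and 1.07 against 27.9 and 21.4 (-3.44, SE 0.57, adjusted p = 0.000707), SOC1 had 15, 13.1 and 25.6 against 121 and 143 (-2.87, adjusted p = 8.77e-05), and AGL24 (-2.76) and FUL (-1.82) were also lower. The counts of 11 and 4 were the same under the 3 other scalings and without any of the 5 compared libraries in turn.

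Among regulators of nectary development and flower maturation, 3 of 7 were higher and none was lower. CRC had 531, 629 and 439 against 65.7 and 143 (2.43, SE 0.39, adjusted p = 0.000552). MYB24, which with MYB21 controls the last steps of flower maturation in Arabidopsis, had 569, 838 and 857 against 8.96 and 16.9, the largest called rise among non-overlapping loci (5.8, SE 0.51, adjusted p = 1.38e-05). MYB21 had 28.7, 30.1 and 37.3 against 0.996 and 0 (4.54, SE 0.38, adjusted p = 1.02e-05). The auxin response factors ARF6 and ARF8, which act upstream of these MYB genes in Arabidopsis, were near equal in level, with log2 changes of -0.01 and 0.2 and no call. CRC was well above 0 in leaf, as was SWEET9. On the scale of the 23-library fit, CRC had 82.7 and 177 in J. herrerae leaf A and B and 5.08 and 4.9 in J. procumbens leaf B and C. The origin of these leaf values was not tested.

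Meristem and polarity factors also separated the tissues. STM, a homeobox factor that keeps shoot meristem cells undetermined, had 50.6, 54.9 and 73.5 against 2.99 and 2.25 (4.06, SE 0.25, adjusted p = 2.83e-06), and KNAT6 of the same family had 27.3, 28.1 and 34.1 against 1.99 and 0 (4.15, adjusted p = 1.31e-05). Of 5 such genes 3 were higher (KNAT1 at 1.22, adjusted p = 0.0216, the third, a call lost without pre-secretory B, pre-secretory C or leaf B) and ANT was lower (-1.94, adjusted p = 0.000812). Of 12 polarity genes 5 were higher and 6 lower, against 16.2% higher and 27.3% lower over the loci tested. YABBY and KANADI members of the abaxial side were among the higher ones, with FIL at 197, 195 and 104 against 39.8 and 33.8 (2.09, adjusted p = 0.00255) and KAN1 at 2.06. Leaf-growth factors were among the lower ones: TCP4 (1.37, 0.653 and 4.26 against 30.9 and 32.6; -3.58, adjusted p = 0.000232), TCP10 (-2.27), TCP24 (-2.11) and AS1 (-2.45). None of 10 DNA replication genes was called, whereas 8 of 14 genes of mitosis and cytokinesis were lower and none higher (median -1.03). The mitotic cyclin CYCB1;2 was at -2.2 (adjusted p = 0.00467) and KNOLLE, a syntaxin of the cell plate, at -1.5 (adjusted p = 0.000245); both are low genes, at 1.96 to 6.84 in nectary and 6.75 to 20.9 in leaf. Of 17 cytosolic ribosomal proteins 6 were higher and none lower (median 0.64), with RPL28A at 1 (adjusted p = 0.00423). That count was 1 without pre-secretory A, 1 without leaf A and 16 with the dominant loci removed.

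**Figure D4:**
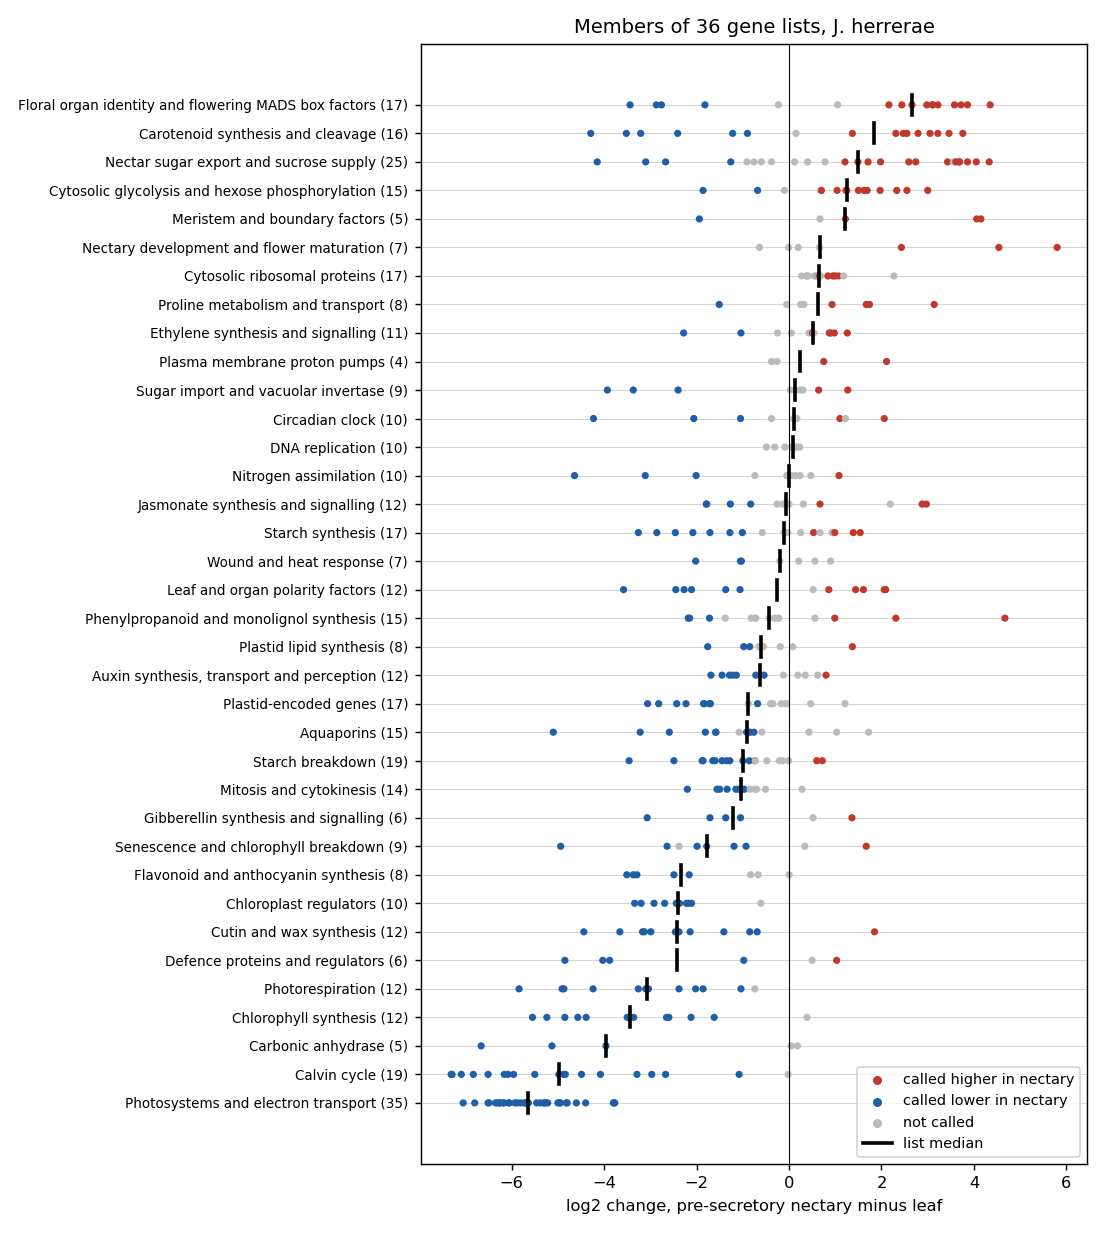
Each row is 1 of 36 gene lists with the number of genes tested in brackets; each point is a gene placed by its log2 change (nectary minus leaf), red where called higher, blue where called lower and grey where not called, with the list median as a bar. Floral MADS box, carotenoid and sugar export lists have the highest medians (2.66, 1.84 and 1.49) and the photosystem list the lowest (-5.65).

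The carotenoid genes went in both directions. Of 16, 9 were higher and 6 lower (median 1.84). The desaturation and isomerisation steps that lead to lycopene were higher: ZISO had 152, 259 and 270 against 11 and 32.6 (3.46, SE 0.38, adjusted p = 5.11e-05), CRTISO 118, 308 and 262 against 9.96 and 21.4 (3.76, adjusted p = 0.000749), ZDS was at 2.79 and PDS at 2.31. The cyclase LCYB (2.47), the hydroxylase BCH1 (413, 921 and 829 against 60.7 and 108; 3.05, adjusted p = 0.000165) and the cleavage enzyme CCD1 (407, 1130 and 895 against 62.7 and 100; 3.22, adjusted p = 0.000174) were higher as well. Among the lower genes, VDE (-4.29, adjusted p = 3.87e-05) and ZEP (-3.52, adjusted p = 0.00288) interconvert violaxanthin and zeaxanthin. LCYE (-3.21) and CYP97C1 (-2.41), also lower, lead to lutein. PSY, the entry enzyme, had 24.6, 25.5 and 41.5 against 55.8 and 88.9 (-1.22, SE 0.36, adjusted p = 0.0177), a call lost without pre-secretory A, pre-secretory B or leaf B, on the deposited scale, with the dominant loci removed and in the 20-library and 23-library fits (adjusted p up to 0.406). Pre-secretory A was the lowest of the 3 nectary libraries for each of the higher genes whose values are given here.

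Cutin, wax and flavonoid genes were mostly lower. Of 12 cutin and wax genes 11 were lower (median -2.42). DCR, an acyltransferase of cutin, had 4.1, 1.96 and 3.2 against 109 and 67.5 (-4.44, adjusted p = 1.97e-05), and the wax exporter ABCG12 (-3.66), GPAT8 (-3.17) and FDH (-3.13) were lower, while CER1, which makes wax alkanes, had 61.5, 86.2 and 72.4 against 27.9 and 13.5 (1.85, adjusted p = 0.000502). The epidermal markers were lower too, as given above, and their part in this difference was not tested. Of 8 flavonoid genes 5 were lower (median -2.33): UGT78D2 (-3.51), CHS (-3.37), LDOX (-3.29), F3PH (-2.49) and DFR (-2.16). Leaf A was above leaf B for these 5 genes, with CHS at 328 and 45. Of 15 phenylpropanoid genes 3 were higher, 3 lower and 9 not called, shares near those over the loci tested (16.2% higher and 27.3% lower). CAD5, an alcohol dehydrogenase of monolignol synthesis, had 580, 751 and 1040 against 17.9 and 47.3 (4.67, SE 0.48, adjusted p = 3.21e-05), and F5H1 of the sinapyl branch had 91.6, 112 and 252 against 22.9 and 31.5 (2.31, adjusted p = 0.00443). C4H was at 0.99 (adjusted p = 0.0399), a call lost without any of the pre-secretory libraries in turn. PAL1, the entry enzyme, had 54.7, 73.2 and 53.3 against 300 and 250 (-2.18, adjusted p = 0.000107). 4CL1 was at -2.15 (adjusted p = 0.0461), a call lost without any of the 5 compared libraries in turn. Of 8 plastid lipid genes 1 was higher, 3 were lower and 4 were not called, shares near those over the loci tested. The lower ones were FAD8 (-1.76), SSI2 (-0.98) and FATB (-0.85), the last pair not so on the deposited scale or with the dominant loci removed. KAS3 was higher (1.37, adjusted p = 0.00112).

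Among hormone genes, 3 of 12 jasmonate genes were higher and 4 lower, shares near those over the loci tested (16.2% and 27.3%). The cyclases AOC4 (138, 306 and 167 against 30.9 and 18; 2.97, adjusted p = 0.000195) and AOC3 (26, 13.1 and 16 against 1.99 and 1.13; 2.88, adjusted p = 0.000715) were higher, whereas the enzyme just before them, AOS, had 12.3, 18.9 and 11.7 against 61.7 and 41.7 (-1.79, adjusted p = 0.000179). OPR3 (-1.27), OPCL1 (-1.78) and LOX6 (-0.83) were lower. The LOX6 call was lost under the 3 other scalings and without pre-secretory A, pre-secretory C or leaf A (adjusted p up to 0.588). Of 12 auxin genes 7 were lower and 1 higher (median -0.63). The carriers ABCB19 (-1.69), AUX1 (-1.45), LAX2 (-1.29) and PIN3 (-1.22) were among the lower ones and PIN2, at 3.92 to 5.33 against 1.99 and 2.25, was the higher one. LAX2 lost its call in 9 of 22 settings, among them the 3 other scalings and the fits without pre-secretory B, pre-secretory C or leaf A, and PIN2 and PIN3 each lost theirs in 4, among them the fit without leaf A. With the dominant loci removed, 3 auxin genes were higher and 2 lower, and the list median was 0.03. Of 6 gibberellin genes 4 were lower, the biosynthetic GA20OX2 (-3.07) and GA20OX1 (-1.37), the receptor GID1A (-1.71) and the repressor GAI (-1.05), and the inactivating enzyme GA2OX1 was higher (16.4, 20.9 and 41.5 against 9.96 and 7.88; 1.36, adjusted p = 0.0103). GA20OX1 lost its call in 9 of the 21 settings that tested it, among them the fits without pre-secretory A, pre-secretory B or leaf B. GA2OX1 lost its call without leaf B. Of 11 ethylene genes 5 were higher and 2 lower, against 16.2% and 27.3% over the loci tested. The oxidase ACO4 (559, 789 and 879 against 259 and 355; 1.26, adjusted p = 0.00272), the receptor ERS1 (0.9) and the factor EIN3 (0.87) were among the higher ones. The synthase ACS6 (1.37, 1.96 and 1.07 against 12.9 and 9.01; -2.28, adjusted p = 0.000131) was lower, and ERF1 was listed at 0 in nectary and at 0.996 and 1.13 in leaf. The ethylene count of 5 was 2 on the deposited scale and 1 without leaf B.

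Counts of proton pump, aquaporin, proline and nitrogen genes are set against 16.2% higher and 27.3% lower over the loci tested. Of 4 plasma membrane proton pumps 2 were higher, AHA4 (107, 83 and 161 against 26.9 and 23.6; 2.11, adjusted p = 6.97e-05) and AHA11 (0.75, adjusted p = 0.0103), the latter not without leaf A or on the deposited scale. Of 15 aquaporins 10 were lower and none higher (median -0.92). The vacuolar TIP2;1 had 9.57, 3.27 and 5.33 against 312 and 161 (-5.1, SE 0.37, adjusted p = 5.01e-06), and the plasma membrane PIP2;5 (-3.22), PIP2;1 (-2.59) and the low TIP1;3 (-1.81) were lower. Under the other scalings 6 aquaporins were lower in each and up to 1 was higher. Of 8 proline genes 4 were higher. P5CR, the last enzyme of proline synthesis, had 93, 52.3 and 156 against 9.96 and 9.01 (3.14, SE 0.45, adjusted p = 0.000253), and P5CS2 (0.93), P5CDH (1.74) and PRODH2 (1.67) were higher, the last pair acting in breakdown, while the carrier PROT1 was lower (-1.51, adjusted p = 3.25e-05). In nitrogen assimilation 3 of 10 were lower and 1 higher, shares near those over the loci tested, with a median of 0. The plastid glutamine synthetase GLN2 had 26, 27.4 and 47.9 against 637 and 1090 (-4.64, SE 0.32, adjusted p = 4.54e-06). The nitrate transporter NRT1.1 (-2.01) and the asparagine synthetase ASN1 (9.57, 0 and 0 against 16.9 and 19.1; -3.11) were lower. The cytosolic GLN1;2 had 230, 278 and 310 against 159 and 101 (1.08, adjusted p = 0.0153). ASN1 lost its call without pre-secretory B, pre-secretory C or either leaf library, and GLN1;2 without leaf B and on the deposited scale.

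Defence, senescence and clock genes were examined last. Of 6 defence genes 4 were lower: OSM34 (16.4, 7.19 and 4.26 against 95.6 and 708; -4.85), the chitinase CHIB (57.4, 3.92 and 12.8 against 144 and 458; -4.03), PR4 (-3.88) and EDS1 (-0.98), and PAD4 was higher (1.03). Leaf B was above leaf A in the first 3, and pre-secretory A was the highest nectary library for each, with PR4 at 36.9, 0.653 and 4.26. PR4 lost its call without leaf B, EDS1 without either leaf library and under the 3 other scalings, and PAD4 without leaf A and on the deposited scale. Of 9 senescence and chlorophyll breakdown genes 6 were lower, including the protease SAG12 (5.47, 0.653 and 1.07 against 54.8 and 132; -4.94), NYC1 (-1.99) and ORE1 (-1.78). SAG12 lost its call without leaf B and ORE1 without leaf A. WRKY53 was listed at 0 in the nectary libraries and at 3.98 and 6.75 in leaf. NYE1, which removes magnesium from chlorophyll, was higher (15, 22.2 and 28.8 against 7.97 and 4.5; 1.67, adjusted p = 0.0307), a call lost on the deposited scale and without pre-secretory B, pre-secretory C or either leaf library. Of 10 clock genes 3 were lower and 2 higher, shares near those over the loci tested (27.3% and 16.2%). ELF4 of the evening complex had 21.9, 12.4 and 24.5 against 519 and 267 (-4.23, SE 0.34, adjusted p = 8.85e-06), whereas its partner LUX had 6.84, 5.88 and 10.7 against 0.996 and 1.13 (2.06, adjusted p = 0.00127). TOC1 was at 1.1, and PRR9 (-2.06) and PRR5 (-1.05) were lower. PRR5 lost its call in 9 of 22 settings, among them the 3 other scalings and the fits without pre-secretory A, pre-secretory C or either leaf library (adjusted p up to 0.396), and PRR9 without leaf B. The labels give an hour of collection for secretory nectaries but none for pre-secretory nectary or leaf, so tissue and hour cannot be told apart for clock genes. Of 7 wound and heat genes 3 were lower, against 27.3% over the loci tested. These were WRKY33 (-2.02), WRKY40 (-1.05) and HSP101 (-1.03), the last pair not with the dominant loci removed.

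Among loci outside the lists, the largest rises were AT1G02920 (745, 1690 and 1680 against 28.9 and 29.3; 5.42, adjusted p = 2.63e-06) and AT3G14360 (228, 436 and 538 against 5.98 and 11.3; 5.35, adjusted p = 3e-06). The largest falls were AT2G14580 (2.73, 0.653 and 0 against 188 and 573; -7.49, adjusted p = 1.24e-05) and AT3G09950 (24.6, 1.96 and 5.33 against 1090 and 1130; -7.15, adjusted p = 7.59e-05). The groups did not overlap at any of these 4 loci.

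The pre-secretory nectary was also set against the later nectary. Against the mean of the secretory and post-secretory groups, 3014 of 12677 loci (23.8%) were called, 1446 higher before secretion (11.4%) and 1568 lower (12.4%). This comparison shares the pre-secretory libraries with the leaf comparison, so its calls are not independent of it. On the deposited scale 225 were higher and 629 lower, and the total was 1613 without pre-secretory B and 1828 without pre-secretory C. Carotenoid genes were higher than in the later stages for 8 of 16 and lower for 2, and glycolysis genes for 7 of 15 and lower for none. The later stages differ among themselves: the summed carotenoid genes stood at 1890, 4340 and 3850 before, 5340, 5840 and 4690 during and 513, 375 and 599 after secretion. The summed glycolysis genes stood at 3900, 5080 and 3820 before, 3890, 3950 and 3410 during and 1630, 1600 and 2200 after it. For both lists the post-secretory libraries were the low ones. MYB24 was at 2.18 (adjusted p = 0.00449) and MYB21 at 2.19 (adjusted p = 0.00113) against the later stages, but MYB24 stood at 951, 508 and 546 in secretory nectary and at 71.8, 18.2 and 50.9 after secretion, so the difference lay with the post-secretory libraries. STM had 24.3 to 37.4 during and 10.9 to 17.2 after secretion, below the 50.6 to 73.5 before it (1.41, adjusted p = 0.00129). SWEET9 (0.91, adjusted p = 0.09) and CRC (-0.55, adjusted p = 0.207) were not called: SWEET9 stood at 12000, 14900 and 14700 during and 571, 288 and 569 after secretion, and CRC at 4000, 2580 and 2640 during and 264, 130 and 228 after.

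Some genes that were lower than in leaf were also lower than in secretory nectary or than the mean of the later stages. SVP stood at 141, 465 and 408 in secretory nectary, far above its 0.653 to 2.73 before secretion, and at 1.34 to 6.25 after it (-3.94 against the later stages, adjusted p = 0.000485). PSY stood at 450, 813 and 790 during secretion and 16.7 to 31.2 after it (-2.08, adjusted p = 0.0011). Against the mean of the later stages, 6 of 15 aquaporins and 6 of 7 wound and heat genes were lower, against 12.4% over the loci tested. No aquaporin was higher. PIP2;5 stood at 81, 310 and 221 during secretion and at 27.3, 26.1 and 28.8 after it. PIP2;1 stood at 146, 457 and 302 during secretion and at 280, 293 and 253 after it, so it was not high during secretion alone. Photosystem genes differed little from the later stages by this test (1 of 35 lower, none higher, median -0.6), although LHCB1.1 stood at 11.6, 31.4 and 63.6 during and 800, 1310 and 750 after secretion, on either side of the pre-secretory values.

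The same contrast was made in J. procumbens, with 4 pre-secretory nectary and 3 leaf libraries. In that species several libraries go against their labels: pre-secretory A correlated at r = 0.457 with its own group and at 0.882 with J. herrerae leaf, leaf A at 0.705 against 0.925 with J. procumbens post-secretory nectary, and post-secretory A at 0.822 against 0.977 with secretory nectary. RBCS1A stood at 40600, 48.3, 30.6 and 17 in the libraries labelled pre-secretory A to D and at 39.5, 41300 and 32700 in those labelled leaf A to C (rescaled over 23 libraries). With the 23 libraries as labelled, 207 of 13080 loci (1.58%) were called, 60 higher (0.459%) and 147 lower (1.12%). On the deposited scale 11 were higher and 66 lower. The total was 2798 without pre-secretory A and 2524 without leaf A, but 80, 117 and 82 without pre-secretory B, C or D and 28 and 19 without leaf B or C. The libraries labelled pre-secretory B, C and D correlated more with secretory nectary (0.876, 0.955 and 0.815) than with their own group, which holds A (0.793, 0.785 and 0.773). Without the 3 libraries named first, 5605 of 13075 (42.9%) were called, 2403 higher (18.4%) and 3202 lower (24.5%). The J. procumbens values below are of this 20-library fit.

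**Figure D5:**
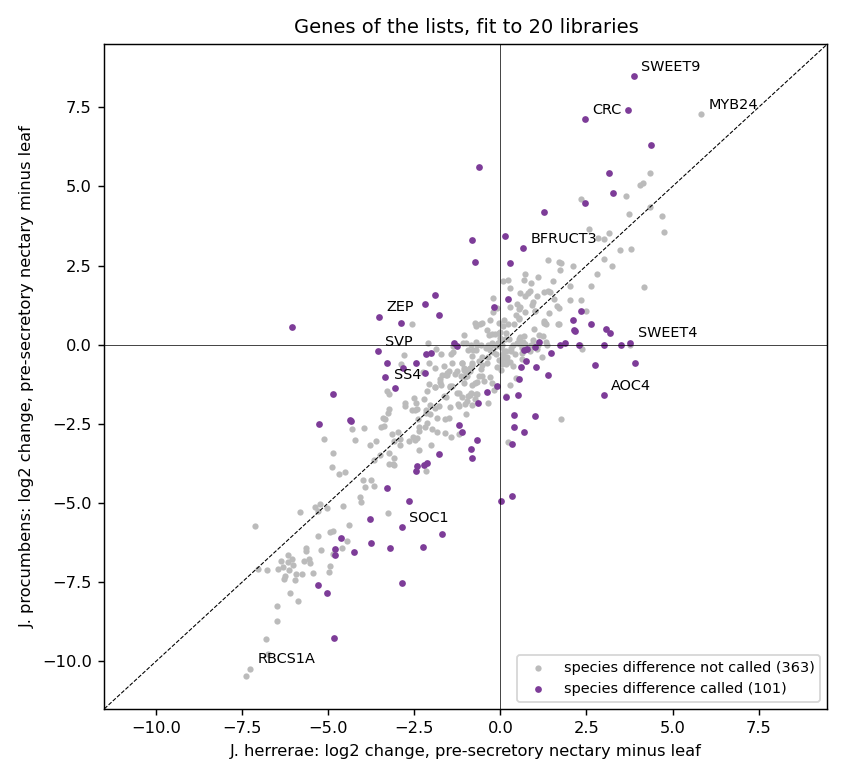
Each point is 1 of 464 list genes, with its log2 change of pre-secretory nectary minus leaf in J. herrerae on the horizontal axis and in J. procumbens on the vertical axis, both from the 20-library fit; the dashed line marks equal change. Purple marks the 101 genes whose difference between the species was called and grey the 363 others; RBCS1A lies low in both species, SWEET9 and CRC lie above the line and AOC4 and SWEET4 below it.

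The lists were counted in J. procumbens in both fits. With the 23 libraries as labelled, 0 of 35 photosystem genes, 0 of 19 Calvin cycle genes and 3 of 12 photorespiration genes were lower, and none of the floral MADS box or sugar export genes was called. In the 20-library fit 34 of 35 photosystem genes, 17 of 19 Calvin cycle genes and 12 of 12 photorespiration genes were lower, and none was higher. The excluded libraries had been chosen by values that include photosynthesis genes, so these counts are partly fixed by that choice and are given as a description. Floral MADS box genes were higher for 10 of 17 and lower for 2, and sugar export and sucrose genes higher for 10 of 25 and lower for 2. SUS4 (5.41), CWINV2 (5.04), SHP1 (6.32), STM (5.11), MYB24 (7.29) and CAD5 (4.07) were called higher in the 20-library fit as well. None of these genes was called with the 23 libraries as labelled, where their adjusted p was 0.166 to 0.408. The libraries were excluded with their values known, so these calls too are given as a description. Ribosomal protein genes were not called in either direction (0 of 17), against 5 of 17 higher for J. herrerae in the same 20-library fit. The difference between species was called for 2 of the 17, a share no larger than the 14.5% over the loci tested. No species difference in these genes is read from the counts.

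The difference between the species was tested as an interaction. It was called at 167 of 13080 loci with 23 libraries (1.28%; 67 higher in J. herrerae, 0.512%, and 100 lower, 0.765%) and at 1897 of 13075 with 20 (14.5%; 979 higher, 7.49%, and 918 lower, 7.02%). In the 20-library fit the change of CRC was smaller in J. herrerae by 4.67 (2.45 against 7.12, adjusted p = 0.000132), and that of SWEET9 by 4.61 (3.88 against 8.49, adjusted p = 0.0139). The leaf values lie under this: on the 23-library scale SWEET9 had 273 and 589 in J. herrerae leaf and 28.4 and 13.5 in J. procumbens leaf B and C. On the deposited scale of the 23 libraries 23 loci were higher and 60 lower, and the total of 167 became 45 without J. herrerae leaf A and 41 without leaf B. With the 23 libraries neither difference was called (adjusted p = 0.969 and 0.931). Among metabolic genes, AOC4 and KAS3 had changes of opposite sign in the species. AOC4 was higher than in leaf in J. herrerae (3) and lower in J. procumbens (-1.6), with a difference of 4.6 (adjusted p = 0.000253). KAS3 was at 1.39 and -0.96 (difference 2.35, adjusted p = 0.000265), and SWEET4 at 3.78 and 0.06 (difference 3.72, adjusted p = 3.97e-05). For SS4 and PAL1 the J. procumbens change was not called in this fit (adjusted p = 0.0512 and 0.342). SS4 was at -3.3 in J. herrerae and -0.57 in J. procumbens (difference -2.73, adjusted p = 5.83e-05), and PAL1 at -2.16 and -0.3 (difference -1.86, adjusted p = 0.00167). With the 23 libraries their J. procumbens changes had the other sign (0.23 and 0.2), also without a call. No species difference was called for AOC4, SWEET4, KAS3, SS4 or PAL1 with 23 libraries, where its adjusted p was 0.0554 to 0.124. The 3 excluded libraries were chosen with their values known.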

How the data were processed

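Nectary and leaf RNA from both species was sequenced as TruSeq stranded mRNA libraries with 150 bp paired reads, per the labels' protocols. Of 24 planned libraries 23 were analysed. Transcripts were quantified with kallisto 0.46.1 according to the submitters' processing notes. Which reference was used, and how Jaltomata transcripts were assigned to Arabidopsis loci, is not given in the sources used. The score deposited by the authors for each locus is a TPM value that they rounded to a whole number. TPM values are not counts, so no count test was run, and read depth is unknown.

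Values were divided by median-ratio factors, and loci were kept where 2 or more of the fitted libraries reached 1 TPM. A pseudocount of 1 was added and log2 values were fitted with limma 3.58.1 on R 4.3.3 (trend in the prior variance, 1 mean per group, 7 residual degrees of freedom, Benjamini-Hochberg adjustment, call at an adjusted p under 0.05). Fold values are 2 to the power of the log2 change and so understate changes of low genes. Tables and figures used Python (3.11.15) with matplotlib (3.10.9), pandas (2.3.3) and numpy (2.4.6). Of 55 pairs of J. herrerae libraries none was identical.

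The members, 36 gene lists and 9 marker lists (592 loci, 481 in the table, 464 tested) were chosen with earlier results of these data known. Symbols come from the lists. Genes were named by a rule: 8 always (SWEET9, CWINV4, CRC, RBCS1A, SPS1F, PSY, MYB21, MYB24), per list up to 4 called members with the largest change in the main direction and up to 2 in the other (each called member where fewer than 3 were called), and the 10 largest called rises and falls without overlap, with at most 2 unnamed loci each way. Other genes in the text were named after their values were seen. The results of 1 gene are not reported here, though counts include it. The fit was tested on simulated data in which 200 of 12605 loci were changed, in equal numbers up and down. It recovered 52% of 2-fold and 91% of 4-fold changes, with 7 calls among unchanged loci. Far fewer loci changed there than were called here, so the simulation cannot test the scaling.

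Alternatives were the deposited scale, upper quartile scaling, removal of the 3 dominant loci, a pseudocount of 0.1, a filter at a mean of 5 TPM or none, no trend, the 5 compared libraries alone, 23 or 20 libraries, a replicate block and leaving out each library.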

Additional observations from a re-analysis of the deposited data

Results flagged for a closer look

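In the fit to the 23 libraries as labelled, the change from leaf to pre-secretory nectary differed between the species for 4 of the genes reported here, each by an interaction test in limma with Benjamini-Hochberg adjustment. The difference (J. herrerae minus J. procumbens, log2) was -2.54 for psbB (adjusted p = 0.0356), 2.72 for AOC3 (adjusted p = 0.0402), 4.48 for AT1G02920 (adjusted p = 0.0381) and 4.39 for AT3G14360 (adjusted p = 0.0146). AOC3 and AT1G02920 were listed at 0 in 6 of the 7 J. procumbens pre-secretory and leaf libraries, with 1.22 and 13.4 in pre-secretory A. Their J. procumbens change rests on that library, and their differences mostly restate the J. herrerae change. For AOC3 the changes were 3.01 in J. herrerae and 0.29 in J. procumbens. These tests include the J. procumbens libraries that go against their labels.

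In the 4 J. procumbens libraries labelled pre-secretory, library A stood far from the other 3 for CRC, at 2.44 rescaled TPM against 611 to 1240, and for RBCS1A, at 40600 against 17 to 48.3. The gap test was run on 8 genes, and chance marks about 1 in 20 groups.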

How the results depend on the processing

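For J. herrerae nectary against leaf, the 5524 calls became 3432 on the deposited scale (953 higher) and 1833 with all 23 libraries (575 higher, 1258 lower). Upper quartile scaling gave 3346 higher, and removal of the 3 dominant loci 5440 higher and 2194 lower. Leaving out 1 library gave 4390 to 5757 calls, 1423 to 2206 higher and 2906 to 3551 lower. Without leaf A or leaf B the lone leaf library is assumed to vary like the other groups. Of 169 named genes, 78 held their call in each setting that tested them, up to 22, and 134 in each leave-out. None changed direction. The filter at a mean TPM of at least 5 kept 156 of the 169, so the others were not tested there. Against later stages the 3014 calls became 854 on the deposited scale (225 higher, 629 lower), and 1613 to 3237 leaving out 1 library (756 to 1517 higher, 857 to 1818 lower). For J. procumbens the 207 calls became 77 on the deposited scale (11 higher, 66 lower), 137 with a pseudocount of 0.1 (77 lower) and 96 lower with a mean TPM of at least 5. They became 5605 with 20 libraries (2403 higher, 3202 lower) and 19 to 2798 leaving out 1 library (0 to 910 higher, 19 to 1888 lower). For the species difference the 167 calls became 83 on the deposited scale (23 higher, 60 lower), 93 with a pseudocount of 0.1 (41 higher, 52 lower) and 88 with a mean TPM of at least 5 (37 higher, 51 lower). They became 1897 with 20 libraries (979 higher, 918 lower) and 41 to 504 leaving out 1 library (17 to 212 higher, 24 to 312 lower). The cause of these shifts was not tested. A replicate block on the library letter gave 5102 calls (1805 higher, 3297 lower) against leaf, 2553 against later stages, 103 for J. procumbens (23 higher, 80 lower) and 95 for the species difference (35 higher, 60 lower). Whether libraries of the same letter share a plant or batch is not stated. Same-letter nectary and leaf libraries had deviations from their group means correlated at -0.063 (A) and -0.125 (B), and 15 same-letter pairs ran from -0.132 to 0.136. With 2 leaf libraries the leaf deviations mirror each other, so this check cannot decide whether letters share an origin. Values near 1 listed TPM are limited by rounding, and read depth is unknown.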

Other observations

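A set of 28 of 9056 loci with a mean of at least 5 TPM varied between libraries of the same tissue in J. herrerae. They were chosen after their values were seen, as loci at least 10-fold higher in pre-secretory A than in B, more than 2-fold higher in C than in B and at least 3-fold higher in leaf B than in leaf A. Their median level was 51.3, 0.653 and 11.2 rescaled TPM in pre-secretory A, B and C, against 0.996 and 13.5 in leaf A and B. In the secretory libraries it was 4.63, 2.42 and 7.07, and after secretion 0.781, 1.09 and 8.7. Among them are the sucrose synthase SUS1, the defence proteins CHIB and PR4, the starch gene APL4, the floral factor SEP2, the jasmonate repressor JAZ3 and the aquaporin TIP1;2.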
